A study of Mus musculus with 12 samples.

Results

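Genes for the protein subunits of the mitochondrial ribosome were described in bone marrow-derived macrophages (BMDMs) from wild-type (WT) and cGAS-/- mice. Members were all rows of the expression table whose symbol was Mrpl or Mrps followed by a number and at most 1 letter from a to c, without pseudogene (-ps) symbols. This gave 55 of 38739 symbols, 35 for the large subunit and 20 for the small subunit. The current GENCODE annotation of GRCm39 holds 78 symbols of this form. The table lists all 53 of those on chromosomes 1 to 12 and 2 on chromosome 13 (Mrpl32 and Mrpl36), and the other 23 were not analysed here.

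The mitochondrial ribosome translates the few proteins that mitochondrial DNA encodes, which are core subunits of the respiratory chain and the ATP synthase. All of its proteins are encoded in the nucleus, made in the cytosol and imported. Many are homologs of bacterial ribosomal proteins, and the rest are found in mitochondria only. In macrophages, lipopolysaccharide (LPS) is known to shift energy metabolism from respiration toward glycolysis.

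RNA-seq was done on 12 samples, 3 for each of 4 groups. Untreated (UT) WT cells and untreated cGAS-/- cells received medium alone, and the WT LPS and cGAS-/- LPS groups received LPS of E. coli 026:B6. According to the sample labels LPS was given at 100 ng/mL for 1 h, whereas the methods of the study give a higher dose and a longer exposure, so the exposure of these samples is uncertain. Both genotypes had a C57BL/6J background, and the mice were male. The sensor of cytosolic DNA, cGAS, was deleted in all cells of the animal and not in macrophages alone. WT mice were bought from a supplier in Thailand, and cGAS-/- mice were provided by a university in Denmark. Genotype and source of the mice therefore cannot be told apart. In the study the samples within each group are described as technical replicates. The p-values therefore measure the spread between samples and not between mice.

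The label of the cells was checked on markers. Of 15 macrophage markers 11 were listed, with a summed level of 24738 to 37868 TPM (a share of all transcripts, corrected for length), although the extraction text of the labels names neutrophils. Neutrophil markers (9 of 10 listed) summed to 59.7 to 374 TPM and B cell markers (6 of 8 listed) to 3.04 to 134 TPM. The latter ran from 108 to 134 TPM in WT UT and from 30.6 to 44.9 TPM in WT LPS. In cGAS-/- cells they ran from 19.9 to 28.5 TPM untreated and from 3.04 to 8.84 TPM with LPS. The part of these cells in the results on the members was not tested. The level of Cgas was 2.67, 2.89 and 2.68 TPM in WT UT, 1.19, 2.88 and 3.25 TPM in WT LPS, and 0.0703 to 0.291 TPM in the 6 cGAS-/- samples. In the library labelled WT LPS replicate 3, the column summed to 709802 against 447189 to 503156 in the other 11 libraries, the pseudogene symbol Fth-ps3 took 31.7% of the total against 6.24 to 17.7%, and protein-coding genes took 18.5% against 39.7 to 54.4%. The counts of called members and the values of the main members are therefore given with and without this library. The number of reads is unknown.

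To show the DNA in front of the members called in the same direction in both genotypes without WT LPS replicate 3 (over 12 samples only Mrpl45 was), the 250 bases before the start site are given for Mrpl45, Mrpl32 and Mrps26, from RefSeq (GRCm38.p6), 5′ to 3′ on the strand of the gene. Capitals mark matches to the NRF1 motif (GCGCA and GCGC with 1 base of any kind between them), bound by NRF1, a regulator of nuclear genes for mitochondria, or to CCGGAAG, the core bound by ETS factors such as GABP. Motifs were searched on both strands.
Mrpl45 (chr11:97315466-97315715, plus strand): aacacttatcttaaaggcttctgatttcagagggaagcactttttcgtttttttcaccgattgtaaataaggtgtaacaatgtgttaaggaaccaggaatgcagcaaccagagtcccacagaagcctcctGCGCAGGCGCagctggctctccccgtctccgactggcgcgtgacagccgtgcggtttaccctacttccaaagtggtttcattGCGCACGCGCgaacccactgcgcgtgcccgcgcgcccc
Mrpl32 (chr13:14613038-14613287, minus strand): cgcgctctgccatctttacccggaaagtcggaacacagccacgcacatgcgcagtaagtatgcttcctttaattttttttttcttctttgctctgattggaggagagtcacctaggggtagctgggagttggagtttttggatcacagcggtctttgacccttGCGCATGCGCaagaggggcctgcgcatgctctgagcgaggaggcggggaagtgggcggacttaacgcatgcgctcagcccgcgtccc
Mrps26 (chr2:130563507-130563756, plus strand): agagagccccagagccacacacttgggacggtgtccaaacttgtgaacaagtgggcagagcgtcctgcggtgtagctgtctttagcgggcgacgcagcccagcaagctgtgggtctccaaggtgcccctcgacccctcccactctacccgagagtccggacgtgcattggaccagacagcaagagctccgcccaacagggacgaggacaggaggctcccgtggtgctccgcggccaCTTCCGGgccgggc
The NRF1 motif is present at 2 places before Mrpl45 and at 1 before Mrpl32, and the ETS sequence at 1 place before Mrps26. Of the 55 members 48 had a RefSeq promoter. The NRF1 motif was in 8 of them (16.7%, against 4.23% of 27025 genes and 10.0% of the 6505 tested genes with a promoter), and the ETS sequence was in 12 (25%, against 7.83% and 16.8%). GGGCGG, bound by SP1, was in 22 (45.8%, against 35.4% and 62.7%), and TATAAA was in 4 (8.33%, against 14.3% and 7.64%). These shares are descriptions, and no test of their differences was made. Without WT LPS replicate 3, the median log2 fold change with LPS in WT cells was 0.20 over the 8 members with the NRF1 motif and -0.09 over the 40 without, whereas over 12 samples these WT medians were -0.57 and -0.54. In cGAS-/- cells, where that library plays no part in the values, they were -0.03 and -0.08. For members with and without the ETS sequence, the WT medians were 0.002 and -0.06 without that library, and -0.28 and -0.61 over 12 samples. In cGAS-/- cells they were 0.015 and -0.14. For GGGCGG the WT medians were -0.04 and -0.03 without that library, and -0.62 and -0.42 over 12 samples. In cGAS-/- cells they were -0.02 and -0.14. A match is a description of the letters and does not show binding.

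All 55 members passed the filter on low values (at least 1 TPM in at least 3 samples), among 9881 genes tested. Over the 11 libraries other than WT LPS replicate 3, the mean level of a member ran from 3.72 to 74.2 TPM with a median of 12.7 TPM, and 38 members lay between 5 and 20 TPM. The large-subunit and the small-subunit members had like medians, 12.7 and 12.7 TPM. The highest were Mrpl34 (74.2 TPM), homolog of bacterial bL34, Mrps21 (64.0 TPM), homolog of bS21, and the mitochondria-specific Mrpl54 (38.2 TPM). The lowest were Mrpl23 (4.08 TPM), homolog of uL23 near the peptide exit, the mitochondria-specific Mrpl48 (3.79 TPM), and Mrps11 (3.72 TPM), homolog of uS11. The lowest members did not differ from one another beyond the spread over libraries. The deposited value appears to be a mean over the transcripts of a symbol, so an order of levels depends on how many transcripts are annotated. After multiplying by the number of annotated transcripts, the rank of Mrpl34 moved from 1 to 10 and Mrps21 stayed at 2 (Spearman correlation of the levels 0.66 across 55 members).

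Members varied less between libraries than the median gene tested, at levels that were not matched. In WT UT replicate 1, for example, the median of log2(TPM + 1) was 3.81 over members and 2.47 over all genes tested. Whether the lower variation follows from the level was not tested. The coefficient of variation over the 11 libraries was 9.69 to 49.1% with a median of 17.3%, beside 33.8% over all genes tested. Mrpl24 (9.69%), homolog of uL24, Mrpl41 (10.1%) and Mrpl42 (10.4%) were the steadiest over these 11 libraries. Without WT LPS replicate 1 as well, Mrps24 went from 26.0% to 8.30%, so this order depends on the libraries. Mrps18c (49.1%), a homolog of bS18, and Mrpl45 (37.9%), which anchors the ribosome at the inner membrane, were the most variable, but without WT LPS replicate 1 as well the value of Mrps18c was 20.8%. The pattern most like that of Mrpl34 over 12 samples was shown by Mrps25, Mrpl46 and Mrpl44 (Pearson correlation of log2 values 0.89, 0.88 and 0.87). Without WT LPS replicate 3 the nearest were Mrpl44, Mrpl12 and Mrpl36 (0.89, 0.87 and 0.82), and the median over all pairs of members went from 0.64 to 0.10. The shared rise and fall of the members over 12 libraries thus rested on that library.

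**Figure D1:**
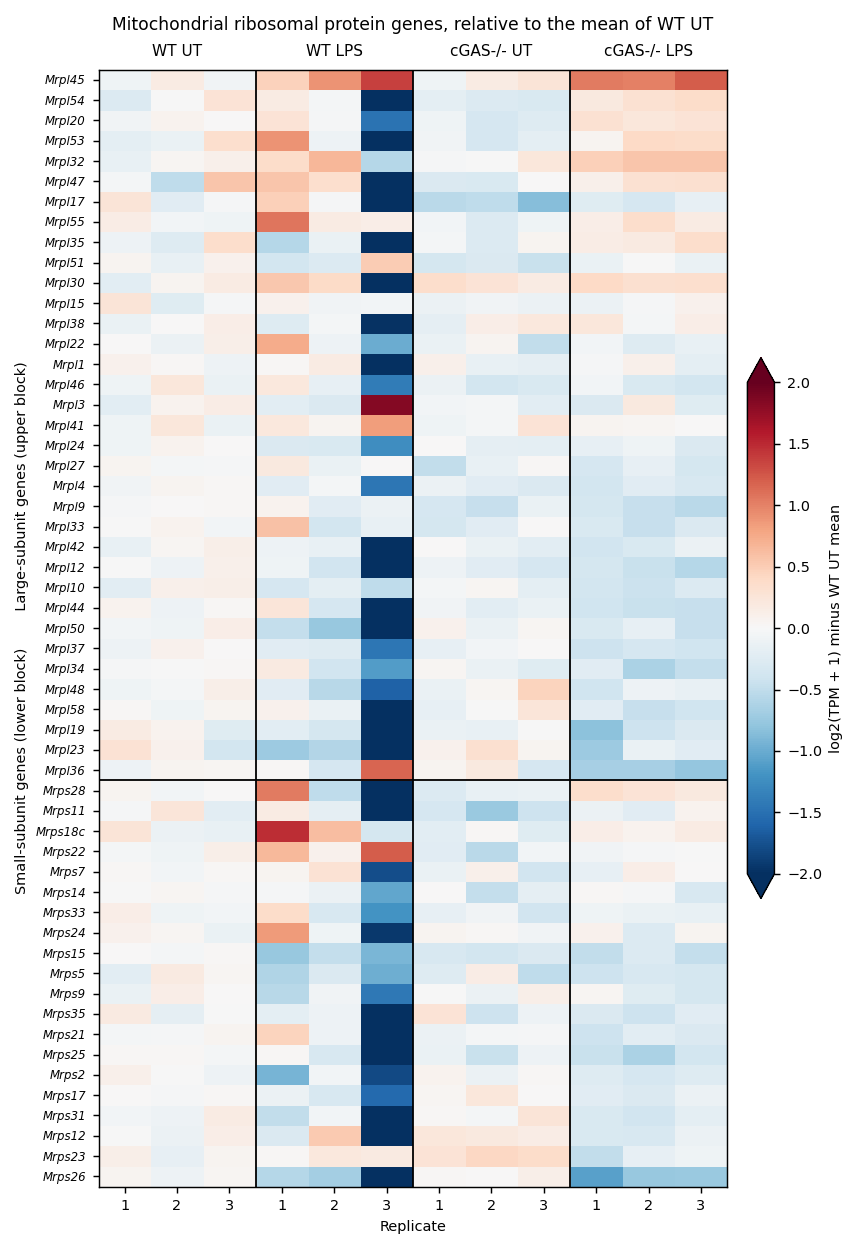
Each row is a member and each column a sample, and colour gives log2(TPM + 1) minus the mean of the 3 WT UT samples, clipped at 2 in either direction. The column of WT LPS replicate 3 is blue for most members, while Mrpl45 in the top row is red in all 6 LPS-treated samples and Mrps26 in the bottom row is blue in all 6.

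The summed level of the members was between 757 and 972 TPM in all libraries but 1. Their sum was 842, 841 and 884 TPM in WT UT, 972, 774 and 437 TPM in WT LPS, 797, 776 and 776 TPM in cGAS-/- UT, and 757, 765 and 769 TPM in cGAS-/- LPS. WT LPS replicate 3 was the lowest by far and WT LPS replicate 1 the highest, so the WT LPS group overlapped every other group. Without replicate 3 both WT LPS values lay above the range of cGAS-/- LPS, and the WT UT range lay above that of cGAS-/- UT. In WT LPS replicate 3, 43 of 55 members had the lowest value of the 12 libraries, as did 53.9% of all genes tested, and 6 had the highest (13.6% of genes). Those 6 were Mrpl3, Mrpl36, Mrpl41, Mrpl45, Mrpl51 and Mrps22, with 19.7, 26.4, 33.8, 29.2, 41.2 and 27.1 TPM. The other WT LPS libraries also differed, since 37 of 55 members were higher in replicate 1 than in replicate 2, beside 2476 of 9881 genes. The median of replicate 1 minus replicate 2 on the log2 scale was 0.16 over all 55 members and -0.40 over all genes. Mrps28, a small-subunit protein, had the largest gap on the log2 scale (1.54), with 35.1 TPM in replicate 1 and 11.4 TPM in replicate 2.

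Against the summed TPM of protein-coding genes, treated and untreated samples separated. The members took 0.425%, 0.428% and 0.445% of it in WT UT and 0.361%, 0.327% and 0.333% in WT LPS, 0.413%, 0.404% and 0.409% in cGAS-/- UT, and 0.322%, 0.326% and 0.328% in cGAS-/- LPS. All 6 LPS-treated samples lay below all 6 untreated ones on this scale, WT LPS replicate 3 included, whereas in summed TPM they did not. The protein-coding total includes the LPS-induced genes, whose 13 listed markers summed to 141 to 257 TPM in untreated and 7737 to 46689 TPM in LPS-treated samples. Whether members fall with LPS as a group thus depends on the scale, and directions below are on the deposited scale unless stated.

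**Figure D2:**
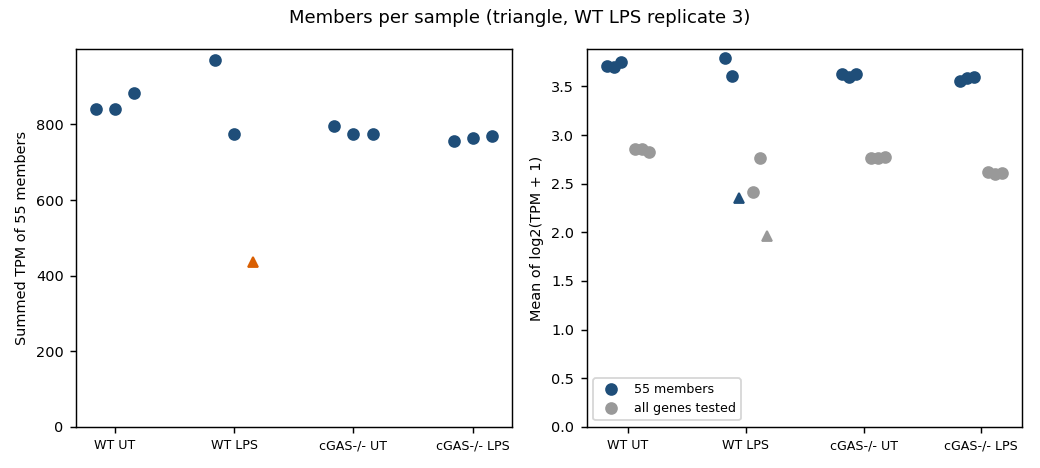
Left, summed TPM of the 55 members in each sample, with values from 437 to 972 TPM. Right, mean of log2(TPM + 1) over the 55 members (blue) and over all genes tested (grey). WT LPS replicate 3 (triangle) is the lowest sample in both panels, at 2.36 for the members against 3.56 to 3.79 in the other 11.

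The effect of LPS in cGAS-/- cells was read from 6 libraries that were much alike. Of the members 1 rose, Mrpl45, and 0 fell at an adjusted p under 0.05 in the fit over 12 samples (limma with Benjamini-Hochberg adjustment over 9881 genes), where 5.54% of all genes were higher and 10.3% were lower. Without WT LPS replicate 3, which enters this comparison through the shared estimate of spread, 4 members were higher and 5 lower, beside 10.7% and 25.3% of 9762 genes. Fitted on its own 6 samples, the comparison gave 11 higher and 13 lower (beside 14.5% and 36.5%), and all 9 of the calls without WT LPS replicate 3 were among these 24. With TMM factors and without that library there were 9 higher and 1 lower, Mrps26, beside 17.5% and 17.1%. In every one of these fits 0 members changed by more than 2 on the log2 scale, beside 4.21% of genes over 12 samples. The median over the 55 members was -0.07, above the -0.22 over all genes, and 32 members were below 0, beside 67.9% of genes. In 29 of 55 members the groups did not overlap, beside 60.6% of genes.

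Among the large-subunit members Mrpl45, gene ENSMUSG00000018882 on chromosome 11 (GRCm39 chr11:97206542-97232865, plus strand), rose in both genotypes. Its levels were 9.96, 12.1 and 10.1 TPM in WT UT, 15.1, 20.6 and 29.2 TPM in WT LPS, 9.96, 12.02 and 12.9 TPM in cGAS-/- UT, and 22.9, 22.5 and 26.0 TPM in cGAS-/- LPS. All LPS-treated samples were above all untreated ones, and 29.2 TPM was in the library that stands apart. The means were 11.6 ± 1.52 TPM untreated and 23.8 ± 1.95 TPM with LPS (SD, n = 3) in cGAS-/- cells. The difference of log2(TPM + 1) was 0.98 (SE 0.26, limma adjusted p = 0.0238), and its limma adjusted p was 0.000583 without WT LPS replicate 3. In WT cells the difference was 0.91 (SE 0.26, limma adjusted p = 0.0219), and 0.68 (SE 0.16, limma adjusted p = 0.00951) without that library, but from the 6 WT samples alone its limma adjusted p was 0.195. Under 8 combinations of scaling and samples it stayed above 0. The lowest and highest values were 0.58 and 1.61 in WT, and 0.70 and 1.24 in cGAS-/- cells, and in each genotype it passed in 6 of the 8. Over 12 samples it missed the threshold when any 1 sample of WT UT (for WT) or any 1 of the 6 cGAS-/- samples (for cGAS-/-) was left out, with limma adjusted p from 0.0523 to 0.107.

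Mrpl32, a homolog of bL32 that is matured by the m-AAA protease before it joins the ribosome, moved in the same direction except in the library that stands apart. It had 7.24, 8.34 and 8.82 TPM in WT UT, 10.8, 13.4 and 5.14 TPM in WT LPS, 7.96, 8.02 and 9.66 TPM in cGAS-/- UT, and 11.6, 12.4 and 12.4 TPM in cGAS-/- LPS. The cGAS-/- groups did not overlap, and in WT only replicate 3 fell below the untreated range. The difference was 0.46 (SE 0.29, limma adjusted p = 0.361) in cGAS-/- and 0.15 (SE 0.29, limma adjusted p = 0.693) in WT over 12 samples, and without WT LPS replicate 3 it was 0.46 (SE 0.12, limma adjusted p = 0.0139) and 0.51 (SE 0.14, limma adjusted p = 0.0142). Over the 8 combinations the WT difference changed sign (-0.091 to 0.90), and the cGAS-/- difference stayed above 0 (0.20 to 0.72).

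Mrps26, a mitochondria-specific small-subunit member (gene ENSMUSG00000037740, GRCm39 chr2:130405658-130410616, plus strand), was lower with LPS in both genotypes. It had 17.5, 15.5 and 17.3 TPM in WT UT, 10.9, 10.1 and 1.52 TPM in WT LPS, 17.0, 16.7 and 18.1 TPM in cGAS-/- UT, and 7.31, 9.51 and 9.58 TPM in cGAS-/- LPS. Every LPS-treated sample was below every untreated one. The difference was -0.91 in cGAS-/- (SE 0.48, limma adjusted p = 0.266) and -1.35 in WT (SE 0.48, limma adjusted p = 0.0519) over 12 samples. Without WT LPS replicate 3 it was -0.91 (SE 0.12, limma adjusted p = 0.000201) and -0.62 (SE 0.13, limma adjusted p = 0.00438). Under the 8 combinations of scaling and samples it stayed below 0 and passed in 4 of the 8 in each genotype. The lowest and highest values were -1.17 and -0.64 in cGAS-/- cells, and -1.56 and -0.23 in WT, the last with TMM factors and without WT LPS replicate 3 (limma adjusted p = 0.314).

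**Figure D3:**
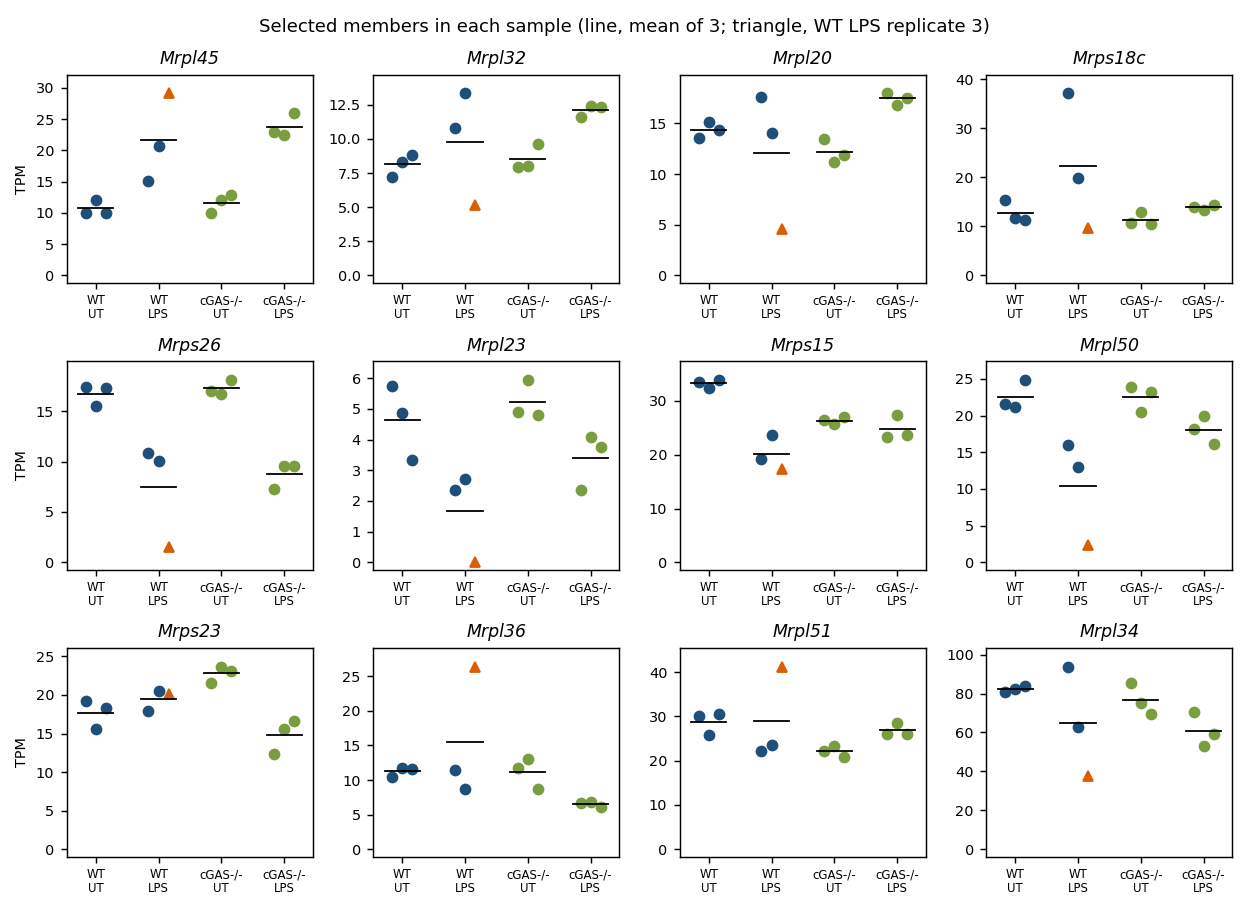
Each panel shows a member, with TPM on the vertical axis, the 4 groups on the horizontal axis, a point for each sample and a line at the mean of 3. In the panel of Mrpl45 the LPS-treated samples (15.1 to 29.2 TPM) lie above the untreated ones (9.96 to 12.9 TPM), and in the panel of Mrps26 they lie below (1.52 to 10.9 against 15.5 to 18.1 TPM).

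The other members called in cGAS-/- cells without WT LPS replicate 3 were on either side. Mrpl54 rose from 32.2, 30.5 and 29.8 TPM to 42.7, 46.1 and 48.2 TPM (log2 difference 0.55, SE 0.14, limma adjusted p = 0.0115), but 94.0% of its canonical transcript is shared with that of Matk, which overlaps it on the other strand. Mrpl20, homolog of bL20, rose from 13.5, 11.2 and 11.9 TPM to 18.0, 16.9 and 17.6 TPM (0.49, SE 0.11, limma adjusted p = 0.0069). These groups did not overlap for either gene. Mrpl36, homolog of bL36, fell from 11.7, 13.04 and 8.69 TPM to 6.69, 6.76 and 6.17 TPM (-0.67, SE 0.15, limma adjusted p = 0.0066). Mrps23, a mitochondria-specific small-subunit protein, fell from 21.6, 23.7 and 23.1 TPM to 12.3, 15.6 and 16.6 TPM (-0.60, SE 0.13, limma adjusted p = 0.00567). Smaller falls were called for Mrpl58 (-0.39), a peptidyl-tRNA hydrolase that is built into the ribosome, and Mrpl37 (-0.31), with limma adjusted p of 0.0426 and 0.0296. Over the 12 samples none of these 6 passed, with limma adjusted p from 0.0808 for Mrps23 to 0.656 for Mrpl58.

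In WT cells LPS gave 3 called members over 12 samples, Mrpl45 higher and Mrps15 and Mrpl23 lower, beside 4.8% of genes higher and 26% lower. All 3 missed the threshold without any 1 of the WT UT samples. Without replicate 3 there were 4 higher (Mrps18c, Mrpl45, Mrpl32 and Mrpl30) and 5 lower (Mrpl23, Mrps26, Mrps15, Mrpl50 and Mrpl51), beside 9.31% and 30.6%. The direction depended on the scale, since with TMM factors (a rescaling that centres the bulk of genes) and without replicate 3 there were 12 higher and 0 lower, beside 17.6% and 18.5%, and with a common protein-coding total over 12 samples there were 19 lower (beside 40% of genes) and 0 higher. The median of the members went from -0.61 to -0.04 on leaving that library out, and that of all genes from -0.55 to -0.33. The groups overlapped in most members, and without replicate 3 they did not overlap in 16 of 55, beside 53.3% of genes. Both counts of lower members were a smaller share of the members than of all genes.

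Mrps15, homolog of the 16S rRNA-binding uS15 (GRCm39 chr4:125940711-125950292, plus strand), had 33.5, 32.4 and 33.9 TPM in WT UT and 19.2, 23.7 and 17.3 TPM in WT LPS. All WT LPS samples, replicate 3 among them, were below the WT UT samples. The difference was -0.71 (SE 0.21, limma adjusted p = 0.0251), and -0.62 (SE 0.12, limma adjusted p = 0.00266) without replicate 3. With TMM factors over 12 samples it was -0.0038 (limma adjusted p = 0.994), and from the 6 WT samples alone its limma adjusted p was 0.245. In cGAS-/- cells it had 26.5, 25.6 and 27.0 TPM untreated and 23.3, 27.5 and 23.7 TPM with LPS, groups that overlapped (-0.09, SE 0.21, limma adjusted p = 0.858). The untreated level was thus lower in cGAS-/- than in WT in every sample, by -0.33 (SE 0.21, limma adjusted p = 1), which did not pass. Fitted on the 6 untreated samples alone, the comparison gave 2 lower members (beside 8.43% of genes), Mrps15 (limma adjusted p = 0.0092) and Mrpl51 (-0.36, limma adjusted p = 0.0444).

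Mrpl23 had 5.76, 4.86 and 3.32 TPM in WT UT and 2.35, 2.70 and 6.31e-09 TPM in WT LPS (log2 difference -1.26, SE 0.43, limma adjusted p = 0.0452, and -0.66, SE 0.22, limma adjusted p = 0.0414 without replicate 3). From the 6 WT samples alone its limma adjusted p was 0.192, and with TMM factors over 12 samples 0.141. The groups did not overlap, but 78.0% of its canonical transcript is shared with Mrpl23-ps1 at 100% identity, so its reads may be split with that pseudogene. Mrpl50, mitochondria-specific, had 21.5, 21.2 and 24.9 TPM in WT UT and 15.96, 12.96 and 2.39 TPM in WT LPS (-1.34, SE 0.48, limma adjusted p = 0.0553, and -0.61, SE 0.14, limma adjusted p = 0.00697 without replicate 3). Mrps18c showed the largest rise without replicate 3, 1.05 (SE 0.23, limma adjusted p = 0.00622), from 15.4, 11.7 and 11.3 TPM in WT UT to 37.2 and 19.9 TPM in WT LPS, with 9.74 TPM in the library left out. The 2 remaining WT LPS values lie far apart, and 76.5% of the canonical transcript of Mrps18c is shared with Abraxas1. Mrpl30, homolog of uL30, was higher by 0.47 (limma adjusted p = 0.0178) and Mrpl51, mitochondria-specific, fell by 0.32 (limma adjusted p = 0.0475), both without replicate 3. Over 12 samples Mrpl30 was at -0.52 (limma adjusted p = 0.526) and Mrpl51 did not pass, and both changed sign among the 8 combinations of scaling and samples.

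**Figure D4:**
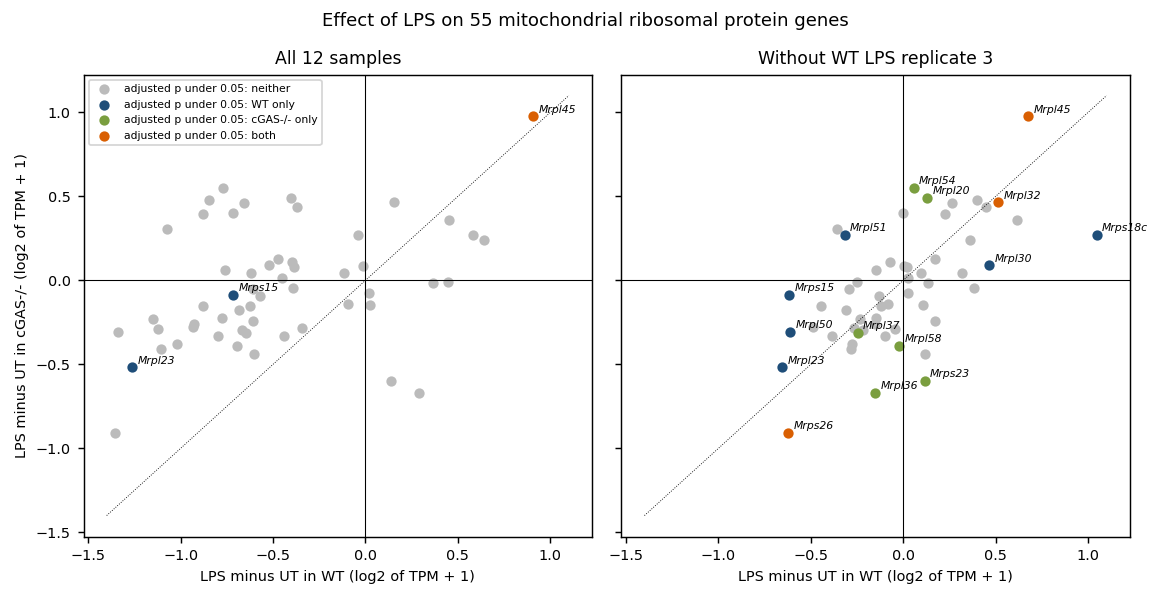
Each point is a member, placed by its log2 difference with LPS in WT (horizontal) and cGAS-/- cells (vertical), over 12 samples (left) and without WT LPS replicate 3 (right). Coloured points passed an adjusted p under 0.05, Mrpl45 in both genotypes at left, and Mrpl45, Mrpl32 and Mrps26 in both at right.

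The LPS comparisons of the 2 genotypes share no sample. Across the 55 members their log2 differences had a Pearson correlation of 0.39 (Spearman 0.36) over 12 samples and 0.62 (Spearman 0.60) without WT LPS replicate 3, beside 0.70 and 0.74 (Pearson) over all genes tested. Without that library 18 members were above 0 in both genotypes, 25 below 0 in both, 7 above 0 in WT only and 5 in cGAS-/- only, beside 1888, 5770, 881 and 1202 of all 9762 genes. With TMM factors as well, the members numbered 36, 5, 11 and 3 and all genes 3435, 3747, 1289 and 1270, so the balance of directions depended on the scale. Members are not independent replicates, and these values describe the 4 group means. Of the 9 members called in each genotype without that library, 3 were called in both, 33.3% of each list. The share of all genes called in both was not counted, so this overlap cannot be read as particular to the members. Both comparisons also share the estimate of spread.

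The difference of the LPS effects between genotypes (interaction) was called for 0 of 55 members over 12 samples and for 0 without WT LPS replicate 3 (limma with Benjamini-Hochberg adjustment), beside 1.04% and 5.57% of genes. At an unadjusted p under 0.05 there were 1 and 7 members, beside 11.1% and 18.2% of genes. Nearest to the threshold without that library were Mrpl51 (0.59, SE 0.15, limma adjusted p = 0.0547), Mrps23 (-0.71, SE 0.20, limma adjusted p = 0.0742) and Mrps15 (0.53, SE 0.16, limma adjusted p = 0.0946). With TMM factors as well, Mrps23 (-0.85, limma adjusted p = 0.0276) and Mrps12 (-0.68, limma adjusted p = 0.0489) passed, beside 8.25% of genes. The Mrps23 difference was below 0 in all 8 combinations of scaling and samples and passed in 1, whereas that of Mrps12 changed sign. Mrpl51 had 30.0, 25.8 and 30.5 TPM in WT UT, 22.1, 23.6 and 41.2 TPM in WT LPS, 22.2, 23.4 and 20.7 TPM in cGAS-/- UT, and 26.0, 28.6 and 26.0 TPM in cGAS-/- LPS. Outside WT LPS replicate 3 all its WT LPS values were below those of WT UT and all its cGAS-/- LPS values above those of cGAS-/- UT, but the difference did not pass and changed sign among the 8 combinations of scaling and samples. For Mrpl45 the interaction was 0.07 (SE 0.36) over 12 samples and for Mrps26 0.45 (SE 0.68), and without WT LPS replicate 3 it was 0.30 (SE 0.22) and -0.28 (SE 0.17), so that of Mrps26 changed sign with that library. Neither passed, which does not show that the genotypes respond alike.

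Between untreated cGAS-/- and WT cells 0 of 55 members were called over 12 samples and 0 without WT LPS replicate 3 (limma with Benjamini-Hochberg adjustment), beside 1.83% and 6.12% of genes, with 0 and 7 members at an unadjusted p under 0.05, beside 7.47% and 16.7%. The median difference was -0.11, beside -0.03 over all genes, and 41 of 55 members were below 0, beside 55.2% of genes. In 10 members all cGAS-/- UT samples were below all WT UT samples and in 3 all were above, beside 19.5% and 13.5% of genes. The lowest was Mrpl17, homolog of bL17, with 23.3, 16.4 and 19.2 TPM in WT UT and 12.97, 13.3 and 10.3 TPM in cGAS-/- UT (-0.64, SE 0.70, limma adjusted p = 1, and SE 0.17, limma adjusted p = 0.0616 without WT LPS replicate 3). Mrps11 followed at -0.50, and the highest were Mrps23 (0.35) and Mrpl30 (0.26), none of which passed in either fit.

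Between LPS-treated cGAS-/- and WT cells 0 members were called over 12 samples (2.59% of genes), with 3 at an unadjusted p under 0.05 (20.2% of genes), and 1 was lower without WT LPS replicate 3 (4.98% of genes), Mrps18c, by limma with Benjamini-Hochberg adjustment. This comparison turned with that library. The median over members was 0.38 with it (all genes 0.27), with 40 of 55 above 0 beside 68.6% of genes, and -0.14 without it (all genes 0.06), with 37 of 55 below 0 beside 43.4% of genes. Mrps18c had 13.96, 13.4 and 14.4 TPM in cGAS-/- LPS against 37.2, 19.9 and 9.74 TPM in WT LPS, which gave -0.46 over 12 samples and -0.92 (SE 0.23, limma adjusted p = 0.0356) without the last value. The highest differences over 12 samples were those of Mrpl35 (1.29, limma adjusted p = 0.183), homolog of bL35, and Mrpl53 (1.12, limma adjusted p = 0.416), and without that library they were 0.58 and -0.12. The lowest were Mrpl36 (-0.99, limma adjusted p = 0.153) and Mrps22 (-0.68, limma adjusted p = 0.209), which had their highest value of all in that library and were at -0.55 and -0.40 without it.

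Other genes of mitochondrial translation are given by count, without WT LPS replicate 3. Of 13 tested translation factors 0 rose and 6 fell with LPS in WT, and 3 fell in cGAS-/- cells, with medians of -0.47 and -0.33, where 30.6% and 25.3% of all genes tested were lower. Falls in both genotypes were called for Guf1 (-0.67 and -0.78), a back-translocating elongation factor, Mtrfr (-1.10 and -0.84), a ribosome rescue factor, and Pdf (-1.56 and -1.12), which removes the formyl group of new proteins. Of 14 genes that charge mitochondrial tRNAs 4 fell in WT and 5 in cGAS-/- cells, and of 22 assembly and rRNA modification genes 6 and 1 fell, Noa1 in both. The shares of translation factors in WT and of tRNA charging genes in cGAS-/- cells were above those of all genes, and the other 4 were below. The transcription factor Tfb2m fell in both (-1.33 and -0.58) and Slirp, which stabilises mitochondrial mRNA, rose in both (0.85 and 0.74). In WT LPS replicate 3, however, Slirp was at 7.34 TPM, below its 18.2 to 22.1 TPM in WT UT, and over 12 samples it passed in neither genotype. Over 12 samples these lists had 4, 3 and 7 lower genes in WT and 2, 0 and 0 in cGAS-/- cells, beside 26% and 10.3% of all genes.

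The median of the members, when WT LPS replicate 3 was left out, lay above those of these lists and of the cytosolic ribosomal proteins, a description for which no test was made. Over 12 samples this did not hold in WT, where the medians were -0.61 over members, -0.86, -0.58 and -0.58 over translation factors, charging and assembly genes, and -0.92 over cytosolic ribosomal proteins. The medians with LPS without WT LPS replicate 3 were -0.04 over members in WT and -0.07 in cGAS-/- cells, -0.49 and -0.55 over 60 cytosolic ribosomal protein genes (30 and 38 lower), and 0.22 and 0.00 over 43 nuclear respiratory chain genes. Large-subunit members had medians of -0.04 and -0.02 and small-subunit members of -0.04 and -0.16. Between genotypes, the leucyl-tRNA synthetase gene Lars2 stood out among the related genes, with 59.9, 58.7 and 59.3 TPM in WT UT and 3.36, 3.55 and 4.17 TPM in cGAS-/- UT (-3.69, limma adjusted p = 0.000719 over 12 samples). No member differed by a like size.

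**Figure D5:**
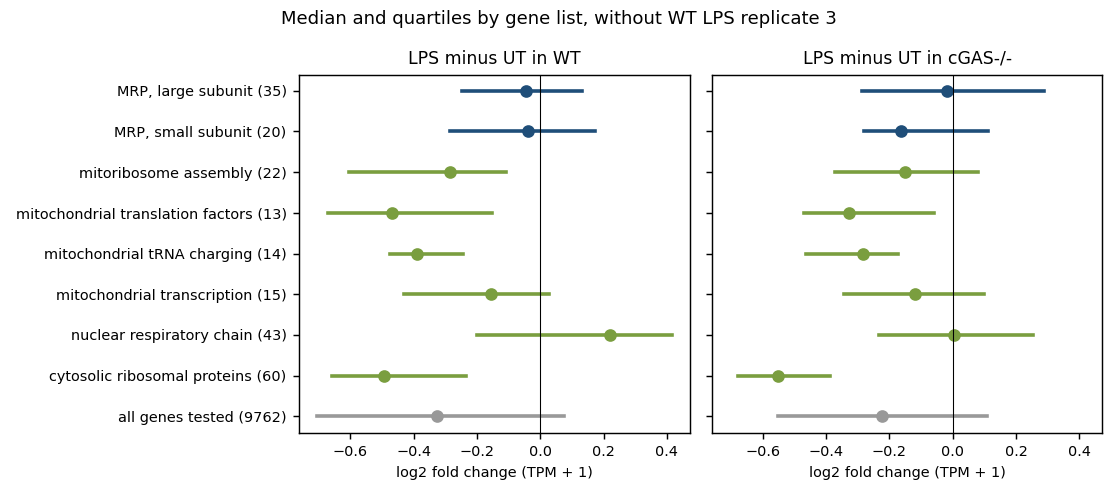
For each gene list (number tested in brackets) the point is the median log2 difference with LPS and the line runs from the lower to the upper quartile, in WT (left) and cGAS-/- cells (right), without WT LPS replicate 3. Mitochondrial ribosomal protein genes (MRP) lie near 0 and cytosolic ribosomal proteins near -0.49 and -0.55.

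In bulk RNA fewer cells of a type and less RNA per cell cannot be told apart. Of 55 members, 32 share more than 10% of their canonical transcript at 95% identity or above with another gene, searched on both strands. Some of these genes are copies, and others are neighbours that overlap the member, as Matk does for Mrpl54 on the other strand. How much of a member's value comes from either kind was not tested.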

How the data were processed

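RNA of 12 samples was sequenced from strand-specific libraries. The authors deposited 1 table of normalized values per gene symbol, taken here as TPM from the values. The methods name STAR and kallisto with GRCm39, and the submitters' processing notes also name fastp, with versions not given in the sources used here. Every value column was matched to a sample by its name. Column sums differed between samples, and the value of a symbol appears to be an average over its transcripts. Genes at 1 TPM or more in at least 3 samples were tested on log2(TPM + 1), which understates changes of low genes, with limma 3.58.1 (R 4.3.3; a mean per group over 12 samples, trended variances, Benjamini-Hochberg adjustment over all genes tested, threshold 0.05). The methods' added threshold of a log2 fold change beyond 2 was counted too. A count test was not run because counts were not used here. The fit was tested on simulated data.

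Members and gene lists were chosen with earlier results of these data known. The symbol pattern for cytosolic ribosomal proteins also took S6 kinase genes and symbols not annotated as protein-coding, which were left out after values were seen. Named members were those called, the 2 highest and 2 lowest differences in each comparison and the 3 highest and 3 lowest levels. Members called without WT LPS replicate 3, and those named for variation between libraries, were added after their values were seen. Alternatives were other pseudocounts, filters, scalings (TMM factors, quantile, common totals), sample weights, no trend, the compared groups alone, a replicate block and each sample left out. The combined settings without WT LPS replicate 3 were added after seeing the data. Transcripts were compared by blastn 2.17.0. Replicate numbers come from the labels.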

Additional observations from a re-analysis of the deposited data

How the results depend on the processing

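Counts of called members depended on the estimate of spread and on the scale, and the cause was not tested beyond the values given. The share of members called was above that of all genes called in 0 of 139 fits of a comparison, all settings counted. Leaving out 1 sample at a time gave 0 to 17 called members for LPS in WT, 0 to 9 for LPS in cGAS-/- cells, 0 to 6 between LPS-treated genotypes and 0 to 2 for the interaction, and 0 in each case between untreated genotypes. For LPS in WT, 0 were called without any 1 of the WT UT samples (17.2 to 18% of genes). There were 10 without WT LPS replicate 1 (32.9% of genes), 17 without replicate 2 (54.7%) and 9 without replicate 3 (39.9%). For LPS in cGAS-/- cells, 0 were called without any 1 of the 6 compared samples. There were 2 without WT LPS replicate 2 (23.8% of genes) and 9 without replicate 3 (36%). Without WT LPS replicate 2, 6 were called between LPS-treated genotypes (33.8% of genes) and 2 in the interaction (16.3%). The medians ran from -0.84 to -0.04 for LPS in WT, from -0.13 to -0.05 for LPS in cGAS-/- cells, from -0.14 to 0.65 between LPS-treated genotypes, from -0.13 to -0.08 between untreated genotypes and from -0.031 to 0.72 for the interaction. With all 12 samples, LPS in WT gave 5 called members with a pseudocount of 5 (33.3% of genes) and 6 with a common total (36.3%). It gave 19 with a common protein-coding total (all lower, 44.5% of genes called) and 0 from the compared groups alone. LPS in cGAS-/- cells gave 2 with a pseudocount of 5, without a filter, with quantile normalization or without a trend (5.79 to 18.9% of genes). It gave 4 with a common protein-coding total (all lower, 25.5%), 25 with sample weights (54.9%) and 24 from the compared groups alone (50.9%). Its median was 0.19 with TMM factors, 0.055 with quantile normalization and -0.34 with a common protein-coding total. Untreated genotypes gave 5 with sample weights (14.4% of genes) and 2 from the compared groups alone (12.6%), all lower. Without WT LPS replicate 3 (added after seeing the data), TMM factors gave 12 called for LPS in WT (all higher, median 0.33, 36.1% of genes called). They gave 10 for LPS in cGAS-/- cells (9 higher, 1 lower, median 0.19, 34.6%) and 2 in the interaction (both lower, median -0.17, 8.25%). A common total gave 11 for LPS in WT (44.3%), 15 for LPS in cGAS-/- cells (38.3%), 2 between LPS-treated genotypes (8.86%) and 2 between untreated ones (6.82%). Sample weights gave 0 for LPS in WT (11.4%), 27 for LPS in cGAS-/- cells (55.1%) and 5 between untreated genotypes (15.7%). Mrpl53 between LPS-treated genotypes turned from 1.12 to -0.12 with sample weights or without WT LPS replicate 3, and without that library to -0.22 with TMM factors, -0.17 with a common total and -0.13 with sample weights (1.99 at most, without WT LPS replicate 1), and its interaction turned to -0.062 with TMM factors. Same-numbered samples showed no shared deviation from their group means, since 0 of 18 such pairs correlated above 0.1 (-0.03 to 0.05). These correlations cannot show whether the samples were prepared in matched sets. A fit with the replicate block gave 0, 0, 3, 1 and 0 called members, as without it.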
